A study of Mus musculus with 6 samples.

Results

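The genes described here mark tissues that lie against the fetal testis: the mesonephric duct beside it and the coelomic epithelium that covers it. They comprise Pax2, Pax8, Gata3, Cdh16 and Wnt9b for the duct, and Upk3b, Krt19, Lhx2 and Msln for the epithelium. Members were taken as every probe set whose platform annotation gives 1 gene symbol equal to one of these 9 names, which yielded 11 of the 45101 probe sets on the array and 8 of the 9 genes. Pax2 matched no probe set under this rule and was not analysed here.

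Testes of mouse embryos at E13.5, shortly after the testis forms, were compared as 3 Dmrt1 null and 3 control samples, each titled as a separate biological replicate, on oligonucleotide arrays. The null testes carry no functional Dmrt1 by title and description, although their genotype entry reads homozygous floxed. The controls are called wild type in the titles but heterozygous for the Dmrt1 null allele in the descriptions and genotype entries. Mice of both groups were outcrossed to 129S6/SvEvTac, a background in which the mutants often form teratomas. Dmrt1 encodes a DM domain transcription factor of Sertoli and germ cells. Its intensities were 48.4, 26.9 and 23.8 in null replicates 1, 2 and 3, and 696, 1030 and 796 in control replicates 1, 2 and 3, so the arrays followed their labels. How many embryos entered a sample, and what drove any deletion of a floxed allele, are not given in the sources used here.

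The mesonephros is the transient embryonic kidney, and its duct becomes the epididymis and vas deferens in males. Pax2, Pax8 and Gata3 are transcription factors that act in duct formation. Wnt9b is a signal that the duct secretes to induce tubules, and Cdh16 is an adhesion protein of duct and tubule epithelium. The coelomic epithelium is a mesothelial layer from whose dividing cells part of the gonad's supporting and interstitial lineages arise. Upk3b, a uroplakin, and Msln, mesothelin, are surface proteins of mesothelium, Krt19 is a keratin of simple epithelia, and Lhx2 is a LIM homeodomain factor. A testis is dissected with some of its covering, and with more or less of the neighbouring mesonephros, so these genes were read array by array.

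All 6 arrays had similar overall signal, with median intensities of 14.6 to 14.8 and upper quartiles of 224 to 233. Markers of the labelled tissue were bright on every array. For the Sertoli cell regulator Sox9 the intensities were 298, 554 and 535 in null replicates 1, 2 and 3 and 877, 419 and 485 in control replicates 1, 2 and 3. Ddx4, an RNA helicase of germ cells, gave 1870, 1540 and 1500 in the nulls and 1470, 2620 and 1760 in the controls. Control replicate 3 stood apart from the other 5 arrays in transcripts of catecholamine-producing cells, which are described last. Across the 22082 tested probe sets, null replicate 1 and control replicate 2 were the 2 brightest arrays at 3296, or 14.9%.

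Neither the duct nor the epithelium genes differed between genotypes beyond the spread of the arrays. A probe set was tested if its mean log2 intensity over the 6 arrays was at least 4, which 7 of the 11 member probe sets met, covering 6 genes. None of the 7 was called by limma at a Benjamini-Hochberg adjusted p under 0.05, a count of 0, and none had an unadjusted p under 0.05, again 0. Over all tested probe sets 0.0272% were called, 6 of 22082. The null and control values overlapped at all 7 tested member probe sets and at the 4 below the filter. They were apart at 12.8% of all tested probe sets, a share at which a count of 0 among 7 does not set the members apart. Each p-value sets a difference against the spread within the groups, which limma moderates with that of other probe sets. The 3 arrays per group limit the precision. In bulk tissue, fewer cells of a type and less RNA per cell cannot be told apart.

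**Figure D1:**
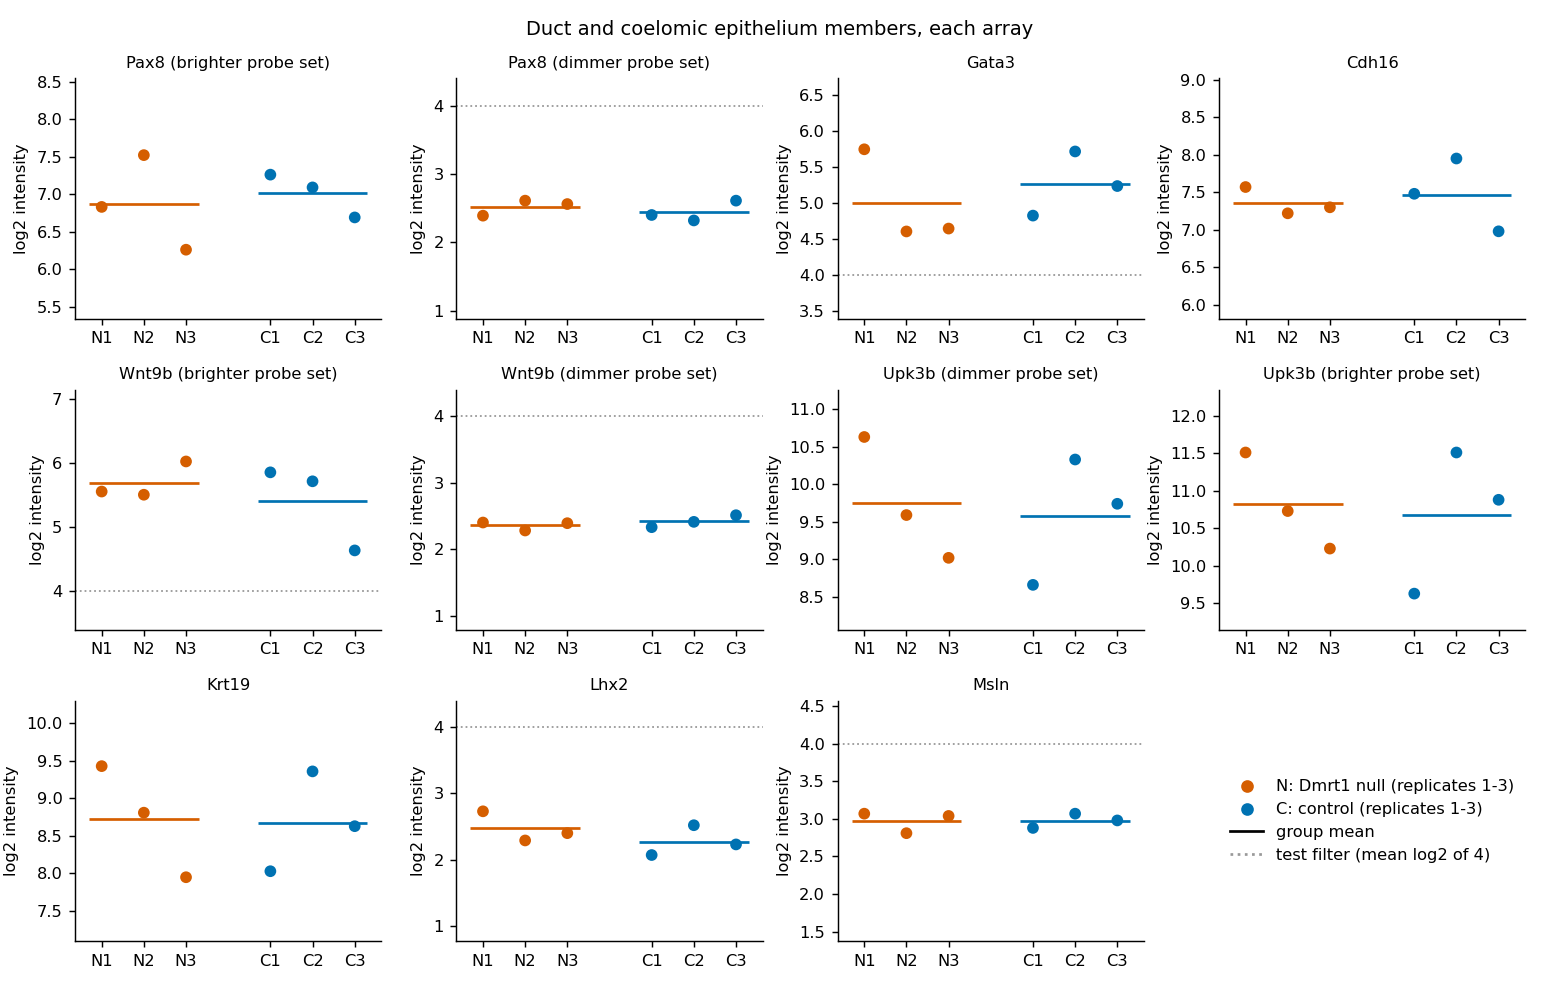
Log2 intensity (vertical axis) of the 11 member probe sets in null replicates 1 to 3 (N1 to N3) and control replicates 1 to 3 (C1 to C3), with group means as bars and the test filter at 4 as a dotted line. Null and control points overlap in every panel, and the Upk3b and Krt19 panels have the same shape, with N1 and C2 on top.

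Among the coelomic epithelium genes, Upk3b and Krt19 varied widely, and in the same way, inside both groups. The upstream sequence of Upk3b is shown with those of 2 mesothelial and epithelial genes that followed it over the arrays, Muc16 and Krt7, and of the duct gene Pax8, which did not. Each is the 250 bases before the annotated start, 5′ to 3′ on the gene's strand, from RefSeq (build GRCm38.p6). The windows are chr5:136038246-136038495 (plus strand) for Upk3b, chr9:18674604-18674853 (minus strand) for Muc16, chr15:101412153-101412402 (plus strand) for Krt7 and chr2:24475600-24475849 (minus strand) for Pax8. Capitals mark GATAA, the core of sites for GATA factors, and the GC box GGGGCGG, each searched on both strands.
Upk3b: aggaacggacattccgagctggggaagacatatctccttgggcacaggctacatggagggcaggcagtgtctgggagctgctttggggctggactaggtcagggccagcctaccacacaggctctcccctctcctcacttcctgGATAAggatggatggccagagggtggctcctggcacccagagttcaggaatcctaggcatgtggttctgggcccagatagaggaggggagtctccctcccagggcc
Muc16: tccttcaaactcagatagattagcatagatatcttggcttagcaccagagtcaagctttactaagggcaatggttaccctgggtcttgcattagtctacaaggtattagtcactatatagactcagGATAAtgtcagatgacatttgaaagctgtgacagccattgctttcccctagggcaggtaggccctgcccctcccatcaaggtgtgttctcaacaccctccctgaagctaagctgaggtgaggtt
Krt7: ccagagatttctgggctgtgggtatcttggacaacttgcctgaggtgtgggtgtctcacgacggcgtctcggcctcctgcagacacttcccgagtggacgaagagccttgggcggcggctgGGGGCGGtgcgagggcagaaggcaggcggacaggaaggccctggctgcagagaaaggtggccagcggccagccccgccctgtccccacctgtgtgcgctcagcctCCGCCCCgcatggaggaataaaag
Pax8: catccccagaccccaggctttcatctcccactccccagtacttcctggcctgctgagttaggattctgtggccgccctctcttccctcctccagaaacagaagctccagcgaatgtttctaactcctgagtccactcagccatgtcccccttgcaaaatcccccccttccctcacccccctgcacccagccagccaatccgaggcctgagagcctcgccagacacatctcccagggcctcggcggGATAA

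Upk3b, Muc16 and Pax8 each held 1 GATAA, and Krt7 held none of it but 2 GC boxes. GATAA occurs in 22.6% and GGGGCGG in 21.0% of the 32851 windows of this length in the RefSeq table, and neither was in all 3 of the Upk3b, Muc16 and Krt7 windows. TATAAA, the TATA box core, which 12.4% of windows hold, was in 0 of these 4. RefSeq promoter windows for 5 of the 8 measured members were in the table, namely Pax8, Gata3, Wnt9b, Upk3b and Lhx2.

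The brighter Upk3b probe set, whose type may also bind similar transcripts, gave intensities of 2920, 1700 and 1200 in null replicates 1, 2 and 3, and 793, 2910 and 1880 in control replicates 1, 2 and 3. The dimmer Upk3b probe set gave 1590, 770 and 518 in the nulls and 405, 1290 and 855 in the controls. Both were highest in null replicate 1, close behind in control replicate 2 and lowest in control replicate 1, so the groups overlapped fully. Their mean log2 intensities were 10.82 ± 0.65 in null and 10.67 ± 0.95 in control testes for the first, and 9.75 ± 0.82 in null and 9.58 ± 0.85 in control testes for the second (SD, n = 3 each). Null minus control on the log2 scale was 0.15 (95% interval -0.95 to 1.26, limma adjusted p = 0.952) for the brighter and 0.17 (-0.97 to 1.30, limma adjusted p = 0.948) for the dimmer probe set. Within the null group alone the first probe set spanned 1.28 on the log2 scale, and within the controls 1.88. The highest array was 3.68 times the lowest, a range that only 1.64% of the tested probe sets reached.

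Krt19, the simple epithelial keratin, gave 692, 449 and 248 in null replicates 1, 2 and 3, and 262, 657 and 396 in control replicates 1, 2 and 3. Again null replicate 1 and control replicate 2 were high, null replicate 3 and control replicate 1 low, and the other two between them. Log2 intensities averaged 8.73 ± 0.74 in null and 8.67 ± 0.66 in control testes (SD, n = 3 each). The difference was 0.06 (95% interval -0.91 to 1.03, limma adjusted p = 0.984), and the span within the nulls was 1.48. These intervals are wide, reaching to -0.91 or below and to 1.03 or above.

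Single arrays set the sign of these differences. Without null replicate 1 the difference was -0.19 for the brighter Upk3b probe set, -0.28 for the dimmer one and -0.29 for Krt19. Leaving out control replicate 1 gave -0.37, -0.29 and -0.26 in the same order, and leaving out control replicate 2 turned none. Null replicate 2 and control replicate 3 share the leading number in their descriptions, whose meaning is not given. Between these 2 arrays, null minus control, the difference was -0.15 for both Upk3b probe sets and 0.18 for Krt19.

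Lhx2 and Msln lay below the test filter and below the median of every array. Lhx2 intensities were 6.63, 4.88 and 5.27 in null replicates 1, 2 and 3 and 4.19, 5.73 and 4.70 in control replicates 1, 2 and 3. Those of Msln were 8.42, 6.99 and 8.22 in the nulls and 7.37, 8.38 and 7.88 in the controls. For both, null replicate 1 was highest and control replicate 2 second, as for Upk3b and Krt19, over spans of 0.66 for Lhx2 and 0.27 for Msln on the log2 scale. Values this dim depend on the background correction, and no difference is drawn from them.

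Further genes of the mesothelial list shared the brightest arrays of the 2 bright members. Of 10 other genes of coelomic epithelium and mesothelium, all tested, 6 were brightest in null replicate 1 and control replicate 2, namely Upk1b, Muc16, Lrrn4, Lhx9, Bnc1 and Podxl. This array pair was noticed in the values, and its share over all tested probe sets is the 14.9% above. Podxl spanned 0.36 on the log2 scale, less than the 0.49 of the median tested probe set. Muc16, the mucin known as CA125, had intensities of 341, 171 and 171 in the nulls and 93.7, 339 and 162 in the controls. Lrrn4, a membrane protein of mesothelium, had 378, 237 and 267 in the nulls against 122, 377 and 220 in the controls. The uroplakin Upk1b had 965, 536 and 405 in the nulls against 371, 835 and 494 in the controls. By these probe sets the 3 genes were highest in null replicate 1 and lowest in control replicate 1. The brightest array exceeded the dimmest by 3.64 times for Muc16, 3.10 times for Lrrn4 and 2.60 times for Upk1b. Of the dimmer Upk1b probe sets, that at 30 in null replicate 1 was highest there too. Those at 261 and 141 in null replicate 1 were highest in control replicate 2, at 273 and 144.

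**Figure D2:**
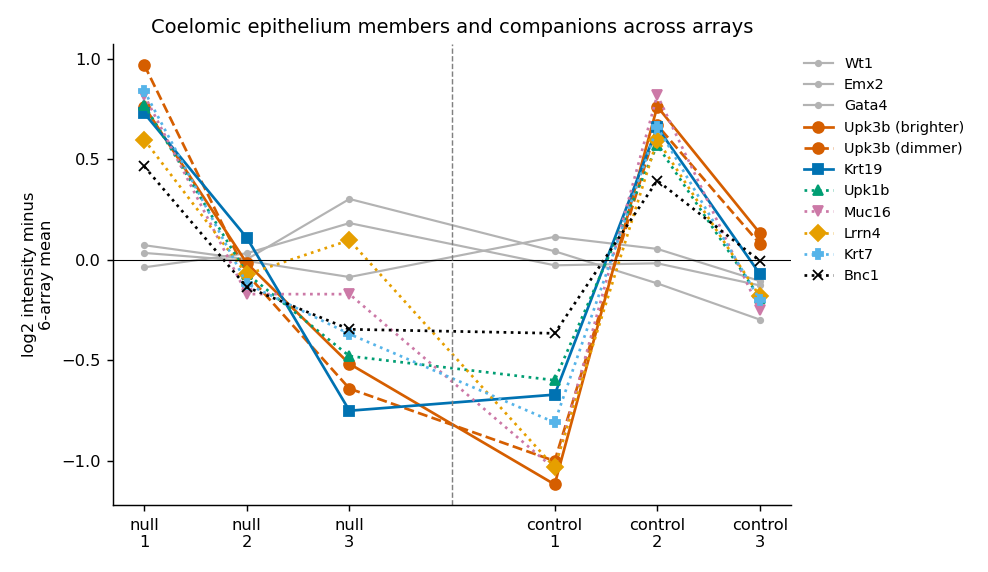
Log2 intensity minus the gene's mean over the 6 arrays (vertical axis) for Upk3b, Krt19 and 5 companions (coloured), and for Wt1, Emx2 and Gata4 (grey), by array. Lines join the values of 1 gene and carry no order. The coloured genes peak in null replicate 1 and control replicate 2 and are low in control replicate 1, whereas Wt1, Emx2 and Gata4 span 0.31, 0.22 and 0.60 and peak in other arrays.

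Transcription factors shared by the epithelium and cells inside the gonad varied to different degrees. Wt1, needed for the gonad to form, gave 3780, 3950 and 4400 in the nulls and 3790, 3830 and 3550 in the controls, a span of 0.31 on the log2 scale. Emx2, another factor of the early urogenital epithelium, spanned 0.22, Gata4 0.60 and the LIM homeodomain factor Lhx9 0.77, beside 0.49 for the median tested probe set. By its brightest probe set Lhx9 had the array pair of Upk3b, as given above, and the other 3 factors did not. Its dimmer probe sets spanned 0.41, 0.71 and 0.39, and the last of these lacked the pair, being brightest in null replicate 3. No gene of this list was called in either direction, a count of 0. The smallest p values belonged to Gata4, a GATA factor of somatic gonad cells, at a difference of 0.25 (limma adjusted p = 0.773), and to Wt1 at 0.12 (limma adjusted p = 0.778). A dimmer Gata4 probe set had the opposite sign, at -0.09 (limma adjusted p = 0.933). The median difference of the 10 genes was 0.16 on the log2 scale, beside 0.01 over all tested probe sets.

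Keratins shared the pattern, but epithelial adhesion genes did so in part. Krt7 gave 845, 435 and 364 in the nulls and 269, 744 and 409 in the controls, and Krt18 gave 3610, 2740 and 2010 in the nulls and 2410, 3490 and 2920 in the controls. Among 12 keratin and junction genes 10 were tested, and Krt7, Krt8, Krt18, Cdh1 and Grhl2 had null replicate 1 and control replicate 2 as their brightest arrays. None of the 10 was called, a count of 0, and their median difference was -0.08. Esrp1, a splicing regulator of epithelia, was the 1 gene whose groups did not overlap, at -0.27 (limma adjusted p = 0.773), followed by the cadherin Cdh1 at -0.13 (limma adjusted p = 0.867). The share without overlap was 12.8% over all tested probe sets. Cdh1 and Epcam are also known in mouse fetal germ cells, and Krt8 and Krt18 in other gonadal cells, so the list is not specific to the covering.

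Other cell types moved over the same arrays. All 5 germ cell markers (Ddx4, Dazl, Pou5f1, Dppa3 and Dnd1) were brightest in null replicate 1 and control replicate 2. This held for the brightest probe set per gene, and a dimmer Dazl probe set was brightest in control replicates 2 and 3. The summed intensity of the 5 markers ranged from 8211 to 10377 in the nulls and from 8043 to 12255 in the controls. The 4 measured Leydig cell genes summed to 3204 to 12950 in the nulls and 4024 to 10320 in the controls, and were high in null replicate 1 and in control replicates 2 and 3. Endothelial and erythroid genes ran the other way. The 4 endothelial markers had their lowest sums in null replicate 1 (611, with the other nulls up to 1024) and control replicate 2 (509, with the other controls up to 1068). The 3 measured erythroid genes summed to 2122, 3955 and 3917 in null replicates 1, 2 and 3. They summed to 4603, 904 and 2195 in control replicates 1, 2 and 3, so control replicate 3 lay near null replicate 1. The smallest p in these 4 lists belonged to Dazl at -0.18 (limma adjusted p = 0.774) and Ddx4 at -0.22, Cyp17a1 at -0.62 (limma adjusted p = 0.852) and Cyp11a1 at -0.94, Kdr at -0.15 (limma adjusted p = 0.865) and Tek at 0.19, and Hbb-bh1 at 0.99 (limma adjusted p = 0.778) and Hba-x at 0.48, and 0 were called. The macrophage list, summing to 658 to 716 in the nulls and 804 to 1205 in the controls, had 0 of 4 genes called. In it 2 were at an unadjusted limma p under 0.05, Mrc1 at -0.54 and Adgre1 at -0.40 (limma adjusted p = 0.773 for both), whose groups did not overlap. Both were highest in control replicate 3, at 968 and 54.1. Of all 22082 tested probe sets, 1333 had an unadjusted limma p under 0.05 and 12.8% had groups without overlap. The 1 gene called in any companion list was Cst9, a cystatin of Sertoli cells, which fell by 1.58 on the log2 scale (limma adjusted p = 0.0271). None of these genes lay below the filter on average. Their part in the levels of Upk3b and Krt19 was not tested.

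The genes most like Upk3b over the 6 arrays, by the root mean square difference of centred log2 values, were Fmod at 0.11, Upk1b at 0.15 and Ddx43 at 0.15. For Krt19 they were Ak5 at 0.11, Upk1b at 0.12 and Ildr2 at 0.16. Upk1b stood in both sets by its dimmer probe set at 141 in null replicate 1, and Upk3b and Krt19 differed from each other by 0.23. The median over all named genes was 0.68 for Upk3b and 0.59 for Krt19.

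The duct genes did not share 1 profile. Pax8, by its tested probe set, gave 114, 184 and 76.8 in null replicates 1, 2 and 3, and 153, 136 and 103 in control replicates 1, 2 and 3. It was highest in null replicate 2 and lowest in null replicate 3, so the whole spread of 1.26 on the log2 scale lay inside the null group. Mean log2 values were 6.87 ± 0.63 in null and 7.01 ± 0.29 in control testes (SD, n = 3 each), a difference of -0.14 (95% interval -0.86 to 0.58, limma adjusted p = 0.932). Without null replicate 3 the Pax8 difference was 0.17. A second Pax8 probe set stayed near background, at 5.23 to 6.12 in the nulls and 5.01 to 6.09 in the controls.

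Among the tested members, Gata3 differed least over the arrays from Krt19, Cdh16 and Upk3b. Gata3 gave 53.8, 24.4 and 25.1 in null replicates 1, 2 and 3, and 28.4, 52.6 and 37.8 in control replicates 1, 2 and 3. Null replicate 1 and control replicate 2 were again the high arrays, at about the same level. The root mean square difference of its centred values was 0.33 from Krt19, 0.39 from Cdh16, 0.40 from Upk3b, 0.65 from Pax8 and 0.72 from Wnt9b. The median over all named genes was 0.48 for Gata3. It was 0.34 for Cdh16, so Cdh16 lay closer to most named genes than to Gata3. Mean log2 values of Gata3 were 5.00 ± 0.65 in null and 5.26 ± 0.44 in control testes (SD, n = 3 each), and the difference was -0.26 (95% interval -1.07 to 0.55, limma adjusted p = 0.890). Without control replicate 1 or 2, or any other single array, it lay between -0.63 and -0.03.

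Cdh16, the duct and tubule cadherin, gave 190, 149 and 158 in the nulls and 178, 247 and 126 in the controls. Control replicate 2 was highest and null replicate 1 second, the same array pair as for Gata3, Upk3b and Krt19, and control replicate 3 was lowest. The nulls lay close together, with a span of 0.35 on the log2 scale against 0.97 in the controls. Mean log2 values were 7.36 ± 0.18 in null and 7.47 ± 0.49 in control testes (SD, n = 3 each), a difference of -0.10 (95% interval -0.67 to 0.46, limma adjusted p = 0.935). Without control replicate 2 the Cdh16 difference was 0.14.

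The duct signal Wnt9b, by its brighter probe set, gave 47.3, 45.6 and 65.5 in the nulls and 58.2, 52.6 and 25.0 in the controls. Control replicate 3 was lowest, and the other 5 arrays lay within 45.6 to 65.5. Mean log2 values were 5.70 ± 0.29 in null and 5.41 ± 0.67 in control testes (SD, n = 3 each), and the difference was 0.29 (95% interval -0.46 to 1.05, limma adjusted p = 0.867). It was -0.09 without control replicate 3 and 0.76 with array weights (limma adjusted p = 0.521). The other Wnt9b probe set lay below the filter, at 4.87 to 5.26 in the nulls and 5.02 to 5.70 in the controls. Nearest to Wnt9b over the arrays were Caps2 at 0.09, Mpp6 at 0.13 and Myb at 0.15, beside a median of 0.47 over all named genes. Between null replicate 2 and control replicate 3, which share a leading number, the null minus control difference was 0.84 for Pax8, -0.63 for Gata3, 0.24 for Cdh16 and 0.87 for Wnt9b.

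The profiles of the other tested duct members were looked up in the same way, beyond the rule that named genes. Nearest to Pax8 were Atp6v1a, a proton pump subunit, at 0.07, Lhx1 at 0.10 and Gpd2 at 0.10, beside a median of 0.44. This Lhx1 probe set, the dimmer of 2, gave 70.7, 104 and 49.5 in the nulls and 109, 88.9 and 66.3 in the controls, low in null replicate 3 as Pax8 was. The brighter Lhx1 probe set gave 610, 867 and 810 in the nulls and 1090, 902 and 711 in the controls, lowest in null replicate 1, so the likeness of Lhx1 to Pax8 did not hold on both. Alcam at 0.08 was nearest to Gata3, beside a median of 0.48, and Map7d2 at 0.07 was nearest to Cdh16, beside one of 0.34. No member was among the 8 nearest genes of any of these duct members.

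**Figure D3:**
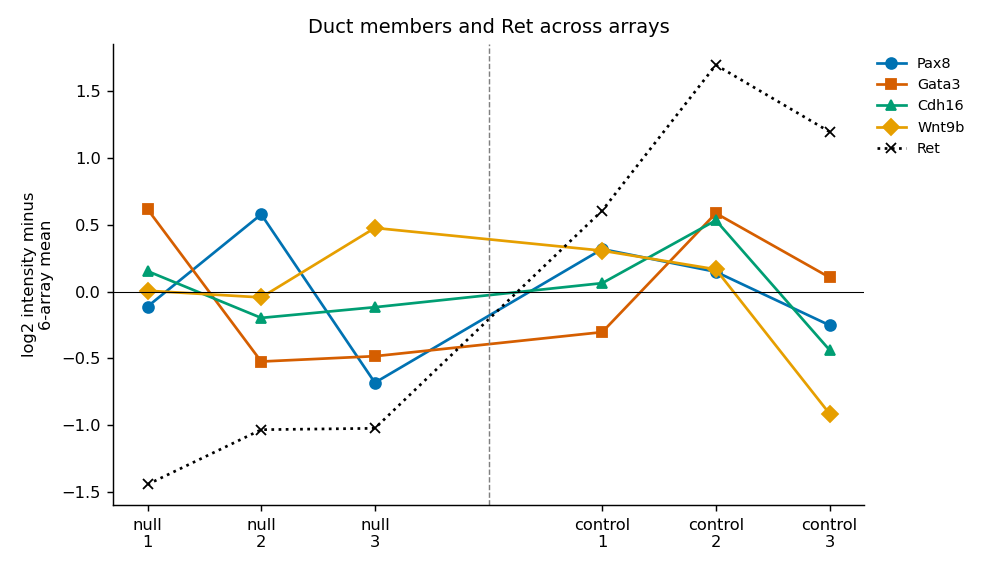
Log2 intensity minus the gene's mean over the 6 arrays (vertical axis) for the duct members Pax8, Gata3, Cdh16 and Wnt9b, and for Ret (dotted), by array. Lines join the values of 1 gene and carry no order. Each duct member is highest in a different array, while every null value of Ret lies below every control value.

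Ret, the receptor for GDNF family ligands, is a classical gene of the duct and is also known in spermatogonia. Its brighter probe set gave 12.1, 16.1 and 16.2 in null replicates 1, 2 and 3, against 50.1, 107 and 75.8 in control replicates 1, 2 and 3. Ret was thus low on all null arrays, with a difference of -2.34 (95% interval -2.99 to -1.69, limma adjusted p = 0.0979), while the 4 duct members on the same arrays differed by -0.26 to 0.29. The Ret difference was not called with all arrays weighted alike, and its limma adjusted p was 0.0211 with array weights. With 16 added to each intensity the Ret difference was -1.56 (limma adjusted p = 0.220). The null mean log2 of 3.87 lay below the filter of 4, which Ret passed through the control mean of 6.21. The dimmer Ret probe set, below the filter, gave 7.27, 6.06 and 6.64 in the nulls and 11.9, 33 and 13.9 in the controls. Whether any Ret difference between these samples involves duct tissue was not tested.

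**Figure D4:**
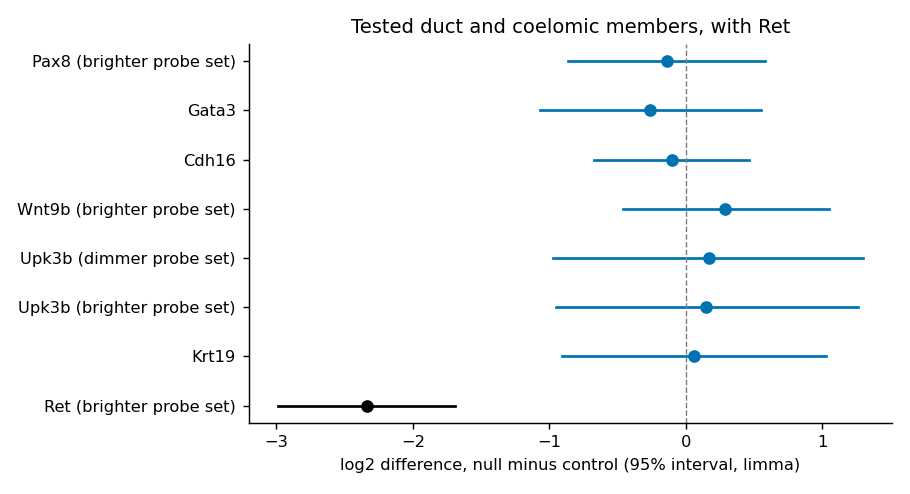
Log2 difference of null minus control (horizontal axis) with its 95% interval from limma for the 7 tested member probe sets and for Ret, n = 3 arrays per group. All 7 member intervals include 0, and that of Ret runs from -2.99 to -1.69.

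Of 11 further duct and tubule genes 10 were measured and 8 tested, and 0 were called in either direction. The median difference was -0.07, and Ret and Calb1 had the smallest p. Calb1, a calcium-binding protein of duct and tubules, gave 209, 361 and 741 in the nulls and 652, 71.7 and 139 in the controls. It was high in null replicate 3 and control replicate 1, where Upk3b was low, and the difference was 1.03 (95% interval -0.76 to 2.83, limma adjusted p = 0.809). Lhx1, a homeodomain factor of the duct, had a difference of -0.24 (limma adjusted p = 0.817). Wnt7b and Hoxb7 lay below the filter, and 0 of the 8 tested genes were brightest in null replicate 1 and control replicate 2.

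Genes listed for neighbouring genital and kidney tissue gave no call either, and whether their signal came from such tissue was not tested. By the brightest probe set per gene, their lists, like the mesothelial and junction lists, held 0 genes at an unadjusted limma p under 0.05. The duct and tubule list held 1, Ret. In the Müllerian duct list 0 of 5 tested genes were called, with a median difference of 0.03. Amhr2, the receptor for anti-Müllerian hormone, was at 0.34 (limma adjusted p = 0.773) and Wnt7a, a signal of the Müllerian epithelium, at -0.61 (limma adjusted p = 0.778). Dimmer Amhr2 probe sets were also higher in the nulls, at 0.43 and 0.30 (limma adjusted p = 0.773 for both). That at 0.30 had an unadjusted limma p of 0.0384. Its groups did not overlap, beside 12.8% of all tested probe sets. The kidney mesenchyme list had 0 of 6 tested genes called and a median of 0.06, with Cited1 at -0.66 (limma adjusted p = 0.773) and Sall1 at -0.38 (limma adjusted p = 0.773). Six2, the factor that defines nephron progenitors, gave 3.66 to 4.14 in the nulls and 3.53 to 3.76 in the controls, below the filter on every array.

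1 control array held transcripts of catecholamine-producing cells. Dbh, the enzyme that makes noradrenaline, gave intensities of 4.66, 3.36 and 4.38 in null replicates 1, 2 and 3 by its brightest probe set, and 3.13, 3.35 and 594 in control replicates 1, 2 and 3. Another Dbh probe set gave 5.25, 3.90 and 3.59 in the nulls, and 4.06, 3.72 and 177 in the controls. Chga, the granule protein chromogranin A, gave 16.3, 11.7 and 13.1 in the nulls and 13.1, 14.2 and 238 in the controls. Control replicate 3 was thus far above the other 5 arrays for both genes. Dbh and Chga belong to a list of 7 adrenal genes, of which 6 were measured, 3 tested and 0 called. The smallest p were those of Chga at -1.38 (limma adjusted p = 0.800) and of Mc2r, the corticotropin receptor, at 0.30 (limma adjusted p = 0.835). The list summed to 196 to 290 in the nulls, and to 288, 175 and 1012 in control replicates 1, 2 and 3.

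Further genes of sympathetic and adrenal medullary cells were looked up after these values were seen. Chgb, the related granin, gave 19.5, 7.19 and 7.28 in the nulls and 8.13, 7.59 and 1270 in the controls. Slc18a1, a vesicular monoamine transporter, gave 16.3, 19.9 and 11.8 in the nulls and 20.0, 15.0 and 257 in the controls. Th, which starts catecholamine synthesis, gave 13.4, 7.43 and 6.27 in the nulls and 5.96, 10.8 and 83.1 in the controls. Phox2a, a transcription factor of sympathetic neurons, gave 6.05, 5.35 and 5.60 in the nulls and 5.52, 5.43 and 39.4 in the controls. Each of these 4 was highest in control replicate 3, and so was Ddc, the decarboxylase of the same pathway, which gave 285, 212 and 212 in the nulls and 230, 381 and 653 in the controls. The other 3 genes looked up were not. Npy, a neuropeptide, gave 338, 52.0 and 44.0 in the nulls and 58.2, 184 and 236 in the controls, and Hand2, a transcription factor also of sympathetic neurons, gave 753, 452 and 302 in the nulls and 341, 700 and 654 in the controls, both highest in null replicate 1. Pnmt, which makes adrenaline, gave 12.4, 18.4 and 31.5 in the nulls and 16.2, 11.0 and 12.5 in the controls by its brightest probe set, highest in null replicate 3.

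**Figure D5:**
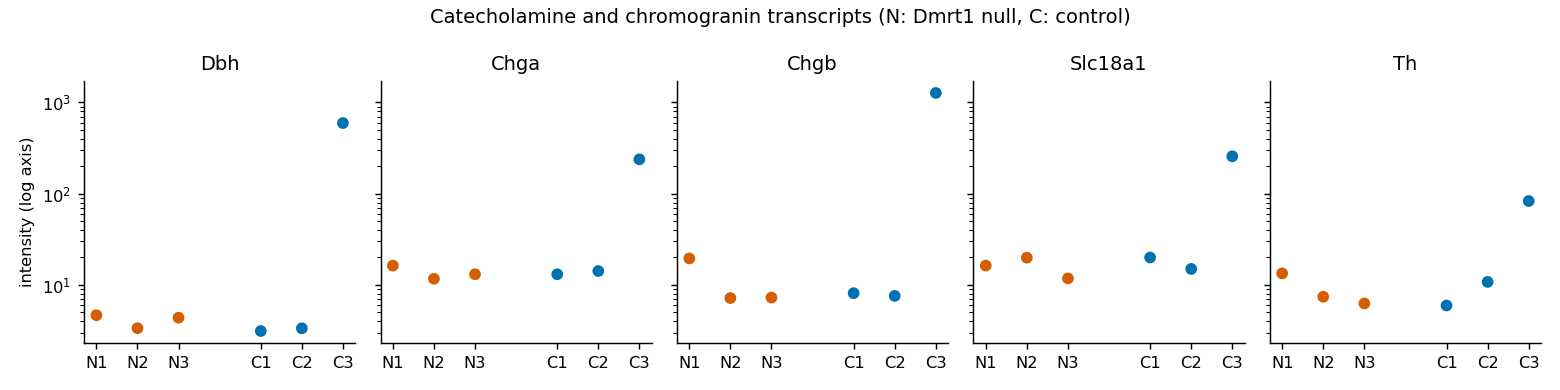
Intensity on a log axis of Dbh (brightest probe set), Chga, Chgb, Slc18a1 and Th in null replicates 1 to 3 (N1 to N3) and control replicates 1 to 3 (C1 to C3). Control replicate 3 lies far above the other 5 arrays for each gene, at 594 for Dbh and 1270 for Chgb.

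Enzymes of the adrenal cortex did not follow that array. Cyp11b1 gave 18.4, 4.70 and 4.46 in the nulls and 6.71, 15.3 and 8.89 in the controls, highest in null replicate 1 and control replicate 2, with a mean below the filter. Cyp21a1 gave 28.9, 13.9 and 13.9 in the nulls and 14.5, 20.6 and 17.8 in the controls, with a difference of 0.02 (limma adjusted p = 0.992). The array with the catecholamine transcripts was not high in the duct or epithelium genes. In control replicate 3 the brighter Upk3b probe set stood at 1880 and Krt19 at 396, near the middle of the 6 arrays, and Cdh16 at 126 and Wnt9b at 25.0 were the lowest of the 6. Without control replicate 3, 0 of the 7 member probe sets were called. That fit called 0 of all 22082 tested probe sets, so it cannot set the members apart.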

How the data were processed

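RNA of E13.5 testes was amplified and biotin-labelled, per the labels' protocols. The authors deposited 1 linear intensity per probe set and array, made with GCRMA per the submitters' processing notes, which name no version. This step removes background, normalizes the arrays together and combines probes, so ratios of dim values depend on it. By the platform annotation, 34958 of 45101 probe sets had 1 gene symbol, 932 several and 9211 none, and the first kind alone was named.

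Intensities were converted to log2 with nothing added. Probe sets with a mean log2 of at least 4, 22082 in all, entered limma 3.58.1 (R 4.3.3) with genotype as sole term and a trended prior, and p-values were adjusted (Benjamini-Hochberg) over all of them. Tests were two-sided, with calls at an adjusted p under 0.05. The fit was tested on simulated data. Companion lists used the brightest probe set per gene. The members and lists were chosen with earlier results of these data known. Named genes are all members, Dmrt1, Ret, called list genes or else the 2 of smallest p, and the 3 genes nearest to each of the 3 most variable members. Other list genes, the array pair and the sympathetic genes were chosen after their values were seen. Replicate numbers did not pair the arrays: deviations of same-numbered arrays correlated at -0.59, -0.34 and 0.14.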

Additional observations from a re-analysis of the deposited data

How the results depend on the processing

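The 7 member probe sets were refitted under 9 other settings and without each array in turn, 103 values in all. A count of 0 was called in every one, with adjusted p of at least 0.521, and 90 kept the sign of the value reported and 13 did not. At an unadjusted limma p under 0.05 the count was 1, Gata3 at -0.63, without null replicate 1, and 0 in the other fits. With array weights the difference was 0.17 for Pax8, 0.17 for Cdh16, -0.03 for the dimmer and -0.05 for the brighter Upk3b probe set, and Wnt9b kept its sign but moved to 0.76, beside 0.29 with equal weights. With single arrays left out, differences ranged from -0.46 to 0.17 for Pax8, -0.35 to 0.14 for Cdh16, -0.09 to 0.52 for Wnt9b, -0.29 to 0.55 for the dimmer and -0.37 to 0.57 for the brighter Upk3b probe set and -0.29 to 0.45 for Krt19. Over the companion lists 1 gene was called, Cst9, a Sertoli cell gene that fell. The count was 0 without the intensity trend, 2 with array weights (Cst9 and Ret), 0 with the replicate block, and 0 to 1 with single arrays left out, beside 4, 13, 5 and 4 to 11 genes in the same order at an unadjusted limma p under 0.05. Over all probe sets 6 were called, 1 without the trend, 0 with the replicate block, and 0 to 4 with single arrays left out, the 0 being without control replicate 3. At an unadjusted limma p under 0.05 there were 816 probe sets with the replicate block and 848 without control replicate 3, beside 1333 with all arrays and no block. The cause of these changes was not tested, except that the block and the left-out arrays reduce the degrees of freedom. Signal over background limited Lhx2, Msln and the dimmer Pax8 and Wnt9b probe sets, which lay below the array medians.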
